A study of Mus musculus with 12 samples.

Results

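The step from 6 h to 12 h was examined in I/11, a mouse pro-erythroblast line that expands as erythroid progenitors. It was covered by 6 of the 12 arrays of the series, chosen by their labelled time: 3 at 6 h and 3 at 12 h. The 3 lines at each time were I/11 cells stably infected with a pLKO lentivirus that carries a puromycin resistance gene and either a scrambled shRNA (scr) or 1 of 2 hairpins against Plcg1, labelled PLCy1 sh 14 and PLCy1 sh 133 (here sh14 and sh133). Each line had 1 array at 6 h and 1 at 12 h, and the difference between them is called its step below. All groups share the I/11 background, the integrated vector and a serum-free medium with erythropoietin, stem cell factor and dexamethasone, as the labels give it for the expanding cells. What the hours were counted from, and whether the medium differed between times, is not stated in the labels. They state no separate cultures, so p-values measure only the spread between these arrays, which may be technical. Both arrays of each line share a date string in their titles, but scr carries one date and both hairpin lines the other, so a difference between scr and the hairpin lines in their step cannot be told apart from the date.

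Pro-erythroblasts are committed red cell precursors that divide while erythropoietin and stem cell factor signal through the erythropoietin receptor with JAK2 and through the receptor Kit. As they mature, the transcription factors Gata1 and Klf1 drive genes of the red cell membrane, heme synthesis and globin, while genes of the progenitor state, Kit and Vim among them, are shut down. Cells of this kind keep dividing during early maturation, so DNA replication genes and erythroid genes can be read in the same RNA.

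Values are log2 array signals of the brightest probe set of each gene, so a difference of 1 is a doubling. Of 12 erythroid identity markers measured, 11 were above the highest array median (1.92), with Hba-a1 below it. Their mean level was 6.89 to 7.37 in the 6 h arrays and 7.01 to 7.50 in the 12 h arrays. Markers of other cells were lower on average. The mean of 15 mast cell and basophil markers was 2.81 to 3.24 at 6 h and 2.62 to 3.20 at 12 h, with 8 of the 15 above the array median and Mcpt8, Mcpt1, Mcpt4, Tpsab1, Tpsb2, Cma1 and Fcer1g below it. Of 17 megakaryocyte markers 12 were above the median, as were 6 of 22 for macrophages and neutrophils and 4 of 19 for lymphoid cells. The 6 h and 12 h arrays of a line correlated at 0.996 for scr, 0.996 for sh14 and 0.997 for sh133 across all probe sets. The 3' actin probe set, set against the 5' one as a sign of RNA integrity, was higher by 0.51 to 0.55 at 6 h and 0.51 to 0.58 at 12 h.

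The targeted gene, Plcg1, encodes a phospholipase C that splits a membrane lipid into messengers for calcium release and protein kinase C. Its signal at 6 h was 4.45 for scr, 3.86 for sh14 and 4.35 for sh133. At 12 h it was 4.61, 4.27 and 4.37 in the same order. Both hairpin lines were below scr at 6 h and at 12 h. For sh14 and sh133 the differences were -0.59 and -0.10 at 6 h and -0.33 and -0.24 at 12 h. Each sets 1 array against 1 array of the other title date, so line and date cannot be told apart. At 1 h the signal was 4.74 for scr, 4.16 for sh14 and 4.53 for sh133. At 22 h it was 4.31, 4.30 and 4.39 in the same order, so sh133 was then above scr. Between 6 h and 12 h the mean difference of the 3 pairs was 0.19 ± 0.12 (SE of the 12-array limma fit, adjusted p = 0.979). With the mean over its probe sets the sign turned to -0.03. Plcg2, the sister enzyme, was 0.12 ± 0.10 higher at 12 h (adjusted p = 0.991).

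Between 6 h and 12 h the intermediate filament gene Vim was the single gene that changed past the threshold, and it fell in all 3 lines. Vimentin forms the intermediate filament network of many immature and mesenchymal cells, and its loss is part of mammalian red cell maturation. Vim was at 6.91 for scr, 7.28 for sh14 and 6.49 for sh133 at 6 h. At 12 h it was at 5.52, 6.14 and 4.47 in the same lines. Every 12 h array lay below every 6 h array, with steps of -1.39 for scr, -1.14 for sh14 and -2.02 for sh133. The mean difference of the 3 pairs was -1.52, or 2.87-fold lower. Its SE in the limma fit of 12 arrays was 0.15 (95% confidence interval -1.85 to -1.19, adjusted p = 0.0135). The SD of the 3 steps themselves was 0.45. In bulk RNA a smaller share of cells that express a gene and less RNA of it per cell cannot be told apart. Its other 2 probe sets were lower at 12 h in all 3 lines as well, with mean differences of -1.52 and -1.74. The call is 1 of 12673 genes tested (0.00789%), where 0 genes were called higher, and 671 genes (5.29%) were at an unadjusted p under 0.05, 384 of them higher. It was lost with only the 6 arrays in the fit (0 called, smallest adjusted p 0.112), with the mean over probe sets (adjusted p = 0.106), without scr (1), sh14 (0.209) or sh133 (0.102), without the scr array of 6 h (0.18) or 12 h (0.13), and without the replicate block (1). Over all alternatives run the limma adjusted p ran from 0.00482 to 1 and the Vim difference from -1.27 to -1.71.

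The sequence just upstream of Vim is shown because Vim was the one gene called, and it fell. These are the 250 bases before its start in the RefSeq promoter table (GRCm38.p6, chr2:13574061-13574310, plus strand), with both CCAAT boxes found on either strand in capitals.
Vim: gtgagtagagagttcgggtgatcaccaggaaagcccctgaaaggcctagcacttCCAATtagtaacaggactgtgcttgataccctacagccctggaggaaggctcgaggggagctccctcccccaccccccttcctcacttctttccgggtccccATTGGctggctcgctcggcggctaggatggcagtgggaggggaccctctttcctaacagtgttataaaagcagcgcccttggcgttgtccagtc
The first letters of these boxes lie 196 and 94 bases before the start. CCAAT was found in 35.0% of 12786 promoters of tested genes over the same length.

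**Figure D1:**
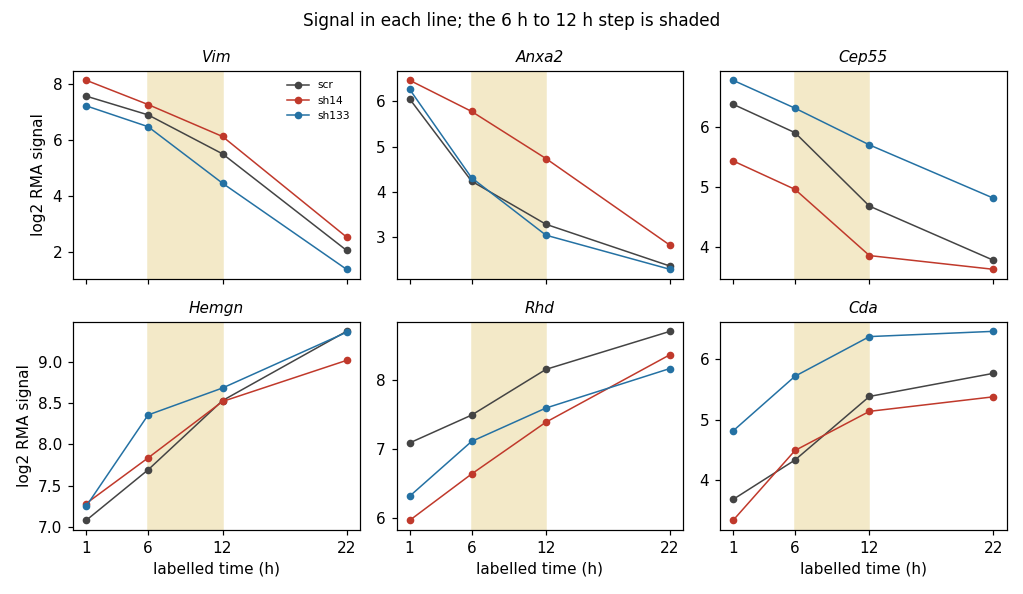
Log2 RMA signal (y axis) of Vim, Anxa2, Cep55, Hemgn, Rhd and Cda at the labelled times of 1, 6, 12 and 22 h (x axis), 1 point per array and 1 line per shRNA line, with the 6 h to 12 h step shaded. Vim went from between 6.49 and 7.28 to between 4.47 and 6.14 over the shaded step, and Vim is the one of the 6 genes whose step passed the test.

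The rest of the step was small against the spread in the 12-array fit. The median absolute difference over all tested genes was 0.0819, and the median SE of a gene's difference was 0.113. With only the 6 arrays in the limma fit the median SE was 0.083, and 1391 genes (11%) were at an unadjusted p under 0.05. The 95% confidence interval lay within a 2-fold change in either direction for 12602 of 12673 genes (99.4%), and within a 1.5-fold change for 11803 (93.1%). Differences over 1 were measured for 4 genes, and 3 of these were lower at 12 h. Besides Vim these were Anxa2, Slc7a8 and Abca1, the last being the one higher. In 749 genes (5.91%) the 3 arrays of one time did not overlap the 3 of the other, 355 of them (2.8%) with 12 h above and 394 (3.11%) with 12 h below. Signs were shared by all 3 lines in 4400 genes (34.7%), with 2390 (18.9%) higher and 2010 (15.9%) lower at 12 h. An exact permutation test of 3 pairs cannot go below a two-sided p of 0.25.

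**Figure D2:**
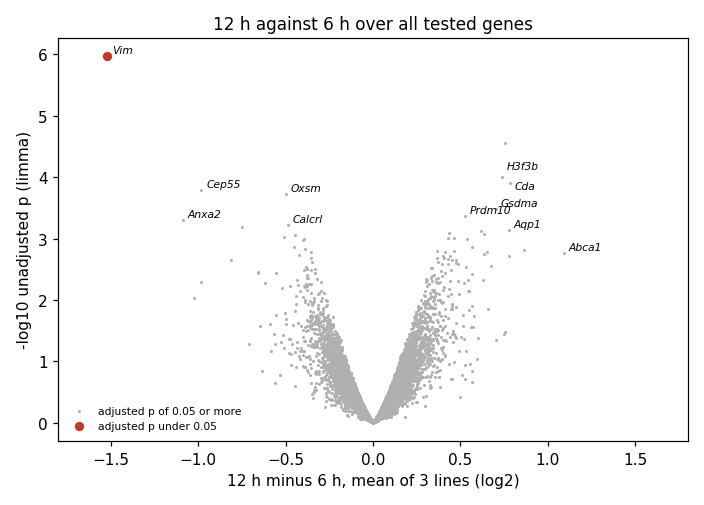
Difference between 12 h and 6 h (x axis, log2, mean of 3 lines) against -log10 of the unadjusted limma p (y axis), 1 point per tested gene, with named genes labelled. Vim, at -1.52, stands apart at the top left, and 4 of the 12673 points lie beyond 1 in size.

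The genes next in order of p that were lower at 12 h were named only if lower in all 3 lines. That agreement was thus fixed by the choice. Genes with a 6 h mean at or below the highest array median (1.92) were passed over. None of the genes named here passed the test. Cep55, a scaffold of the midbody that acts in the last cut of cell division, was at 5.91 for scr, 4.96 for sh14 and 6.32 for sh133 at 6 h and at 4.68, 3.86 and 5.71 at 12 h (-0.98 ± 0.17 SE; limma adjusted p = 0.403). The 2 times overlapped in Cep55 because the lines differed in level, while its step was negative in 3 of 3 lines. Anxa2, a calcium-dependent membrane and actin binding protein, was at 4.24, 5.78 and 4.31 at 6 h and at 3.28, 4.74 and 3.04 at 12 h in scr, sh14 and sh133 (-1.09 ± 0.22; adjusted p = 0.599). Its steps of -0.95, -1.04 and -1.27 were close to each other in size, and sh14 stayed the highest line at both times. As means over their probe sets, which include dim ones, Cep55 differed by -0.53 and Anxa2 by -0.53. Oxsm, an enzyme of mitochondrial fatty acid synthesis, differed by -0.50 and Calcrl, a receptor of the adrenomedullin family, by -0.49, each lower in 3 of 3 lines (adjusted p of 0.403 and 0.599), or by -0.10 and -0.20 as means over their probe sets. Slc7a8, an amino acid transporter chosen after its values were seen, had steps of -1.35 for scr, -0.18 for sh14 and -1.53 for sh133 (mean -1.02 ± 0.32; adjusted p = 0.846).

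On the higher side, Cda, which encodes cytidine deaminase of the pyrimidine salvage pathway, was at 4.34 for scr, 4.49 for sh14 and 5.72 for sh133 at 6 h and at 5.39, 5.14 and 6.38 at 12 h (0.79 ± 0.13 SE; limma adjusted p = 0.397). Genes on this side were likewise named only if higher in all 3 lines and above the highest array median (1.92) in their 12 h mean. In Cda the sh133 array of 6 h lay above the other 2 lines at 12 h. The smallest p among genes not called belonged to a predicted gene that was higher at 12 h and is not named (adjusted p = 0.177). H3f3b, a gene for the histone variant H3.3, differed by 0.74 ± 0.12 (adjusted p = 0.397), read from a single dim probe set. Aqp1, the water channel of red cells, differed by 0.78, Gsdma, a gasdermin, by 0.70, and Prdm10, a zinc finger protein, by 0.53, with adjusted p of 0.589 to 0.599. As a mean over its probe sets Prdm10 differed by 0.20. Aqp1 was dim, at 1.26 to 2.03 at 6 h and 1.79 to 3.06 at 12 h. So was Gsdma, at 1.65 to 2.72 at 6 h and 2.64 to 3.18 at 12 h.

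Genes of S phase and DNA replication had the largest share on one side among the gene lists counted. Of 48 tested members, 41 (85.4%) were higher at 12 h in all 3 lines, against 18.9% of all genes, and 0 were lower in all 3, against 15.9%. Their median difference was 0.30, against 0.0025 over all tested genes, and the single members ran from 0.09 to 0.70. None passed the test (0 of 48, against 0.00789% of all genes), and 16 were at an unadjusted p under 0.05, all higher. The size differed between lines, with a median of 0.53 for scr, 0.17 for sh14 and 0.14 for sh133. Without scr the median was 0.14.

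Ccne2, cyclin E2, which opens S phase with CDK2, differed most (0.70 ± 0.31 SE; limma adjusted p = 0.935). Rrm2, the regulated subunit of ribonucleotide reductase, which makes deoxyribonucleotides, was at 7.70 for scr, 8.01 for sh14 and 7.88 for sh133 at 6 h and at 8.67, 8.48 and 8.32 at 12 h. Every 12 h array of Rrm2 was above every 6 h array (0.63 ± 0.17; adjusted p = 0.72), and its other 2 probe sets were higher in all 3 lines too. Chaf1b, a subunit of the chromatin assembly factor that loads histones on new DNA, was 0.58 ± 0.21 higher (adjusted p = 0.935), by 1.20 for scr, 0.26 for sh14 and 0.27 for sh133, or by 0.23 as a mean over its probe sets. Cdc6, which loads the MCM helicase at origins, was 0.55 ± 0.19 higher (adjusted p = 0.899), by 0.80, 0.50 and 0.36 in the same order.

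Many S phase genes are known targets of E2F factors, and the upstream sequences of 2 members with a match are shown. The E2F motif was searched as TTCCCGC or TTGGCGC on both strands of the 250 bases before the start (RefSeq, GRCm38.p6), and the match is in capitals. Chaf1b lies on the plus strand at chr16:93883651-93883900 and Cdc6 on the plus strand at chr11:98907901-98908150.
Chaf1b: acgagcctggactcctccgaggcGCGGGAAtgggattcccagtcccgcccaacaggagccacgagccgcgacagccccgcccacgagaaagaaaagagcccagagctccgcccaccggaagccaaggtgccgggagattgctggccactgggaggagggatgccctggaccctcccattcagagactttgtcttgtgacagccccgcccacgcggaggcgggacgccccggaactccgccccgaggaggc
Cdc6: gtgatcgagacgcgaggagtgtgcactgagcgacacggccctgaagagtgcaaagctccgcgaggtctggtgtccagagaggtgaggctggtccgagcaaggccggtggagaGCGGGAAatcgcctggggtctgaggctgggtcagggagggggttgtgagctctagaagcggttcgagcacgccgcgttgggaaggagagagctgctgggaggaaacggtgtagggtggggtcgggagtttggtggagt
The motif was found in 13 of 46 S phase promoters (28.3%, from 40 genes matched) and in 9.5% of all 12786. CCAAT was found in 58.7% of them, against 35.0%. A match here is a run of letters, not a site shown to be bound.

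Genes of G2 and mitosis leaned the other way by less, and the median in scr had the opposite sign. Of 52 tested members, 17 (32.7%) were lower in all 3 lines, against 15.9% of all genes, and 0 were higher in all 3, against 18.9%. None passed the test, and 4 were at an unadjusted p under 0.05, all lower. The median was -0.09, with 0.08 for scr, -0.37 for sh14 and -0.03 for sh133. Without sh14 the median was 0.04, so its sign rests on that line. Plk1, a kinase of mitotic entry and exit, differed by -0.32, Kif2c, a microtubule depolymerising kinesin, by -0.29, Bub1b, a spindle checkpoint kinase, by -0.29, and Ect2, which acts in cytokinesis, by -0.29, with limma adjusted p of 0.935 to 0.95. The cell cycle homology motif of mitotic genes (TTTGAA or TTCGAA, both strands) was found in 37.8% of 45 G2 and mitosis promoters, against 12.2% of all, and CCAAT in 71.1%.

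Of 21 cyclins, CDK inhibitors and pocket proteins, 9 (42.9%) were higher in all 3 lines and 1 (4.8%) was lower. The shares over all genes were 18.9% and 15.9%, and 0 members passed the test. E2f2, an E2F factor prominent in erythroblasts, was at 5.73 for scr, 5.71 for sh14 and 5.75 for sh133 at 6 h and at 6.34, 6.00 and 6.28 at 12 h (0.48 ± 0.12 SE; limma adjusted p = 0.652). The 3 lines were within 0.03 of each other at 6 h, and every 12 h array was above them. Rb1, the pocket protein that restrains E2F, was 0.30 ± 0.09 higher in 3 of 3 lines (adjusted p = 0.821), or 0.08 as a mean over its probe sets.

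**Figure D3:**
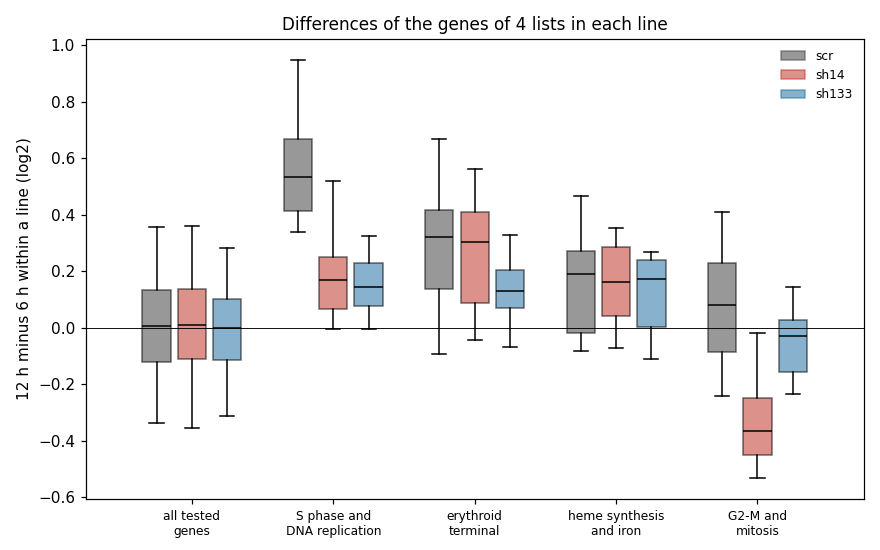
Differences between 12 h and 6 h (y axis, log2) of the members of 4 gene lists and of all tested genes (x axis), drawn for each line as a box of the quartiles with whiskers from the 5th to the 95th percentile. The S phase boxes lie above 0 with medians of 0.53 for scr, 0.17 for sh14 and 0.14 for sh133, and the G2 and mitosis boxes are centred at 0.08, -0.37 and -0.03.

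Genes of terminal erythroid maturation were mostly higher at 12 h. Of 28 tested, 22 (78.6%) were higher in all 3 lines and 1 (3.6%) was lower, against 18.9% and 15.9% of all genes. Their median was 0.25 (0.32 for scr, 0.30 for sh14 and 0.13 for sh133), 11 were at an unadjusted p under 0.05, all higher, and none passed the test. Hemgn, a nuclear protein of erythroid cells, was at 7.69 for scr, 7.83 for sh14 and 8.35 for sh133 at 6 h and at 8.53, 8.52 and 8.68 at 12 h. Every 12 h array was above every 6 h array, and the lines drew together, with an SD of 0.35 at 6 h and 0.09 at 12 h (0.62 ± 0.13 SE; limma adjusted p = 0.599). Rhd, a blood group protein of the red cell membrane, was at 7.49, 6.64 and 7.11 at 6 h and at 8.16, 7.39 and 7.60 at 12 h (0.64 ± 0.14; adjusted p = 0.599), overlapping between times because scr was the highest line at both. Slc4a1, the anion exchanger band 3, differed by 0.40 ± 0.21 (adjusted p = 0.955).

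GATA factors are known to bind at erythroid genes, and the upstream sequences of Hemgn and Rhd are shown with GATA matches (AGATAA or AGATAG, and the same with TGA first, on both strands) in capitals. They are the 250 bases before the start in RefSeq (GRCm38.p6), for Hemgn at chr4:46404184-46404433 on the minus strand and for Rhd at chr4:134864286-134864535 on the plus strand.
Hemgn: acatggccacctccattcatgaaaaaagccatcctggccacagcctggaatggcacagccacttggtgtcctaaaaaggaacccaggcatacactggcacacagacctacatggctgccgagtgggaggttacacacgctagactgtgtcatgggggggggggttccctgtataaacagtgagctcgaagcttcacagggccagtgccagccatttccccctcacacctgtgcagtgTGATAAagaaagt
Rhd: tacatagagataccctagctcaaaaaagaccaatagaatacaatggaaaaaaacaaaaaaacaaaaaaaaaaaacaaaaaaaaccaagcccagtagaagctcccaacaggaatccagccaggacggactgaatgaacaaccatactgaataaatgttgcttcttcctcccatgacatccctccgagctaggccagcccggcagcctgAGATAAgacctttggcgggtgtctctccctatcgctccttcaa
The match begins 13 bases before the start in Hemgn and 43 bases before it in Rhd. A GATA match was found in 11 of 22 promoters of the terminal erythroid list (50.0%, from 20 genes matched), against 17.5% of all. The same match was in 31.1% of 45 G2 and mitosis promoters, 12.9% of 31 heme and iron promoters and 8.7% of 46 S phase promoters. The KLF motif CCNCNCCC was found in 68.2% of the terminal erythroid promoters, against 63.1% of all.

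Heme and iron genes leaned the same way by less. Of 24 tested, 13 (54.2%) were higher in all 3 lines and 1 (4.2%) was lower, against 18.9% and 15.9% of all genes. The median was 0.11, with 0.19, 0.16 and 0.17 in scr, sh14 and sh133, and 0 members passed the test. Alad, an early enzyme of heme synthesis, was 0.52 ± 0.15 (SE) higher in 3 of 3 lines (limma adjusted p = 0.72). Abcb10, a mitochondrial transporter needed for heme synthesis, was 0.37 ± 0.10 higher (adjusted p = 0.72), Abcb6, another mitochondrial transporter, 0.34 higher and Ppox, a late enzyme of the pathway, 0.33 higher. Of 4 globin genes tested, 3 were higher in all 3 lines. Hbb-b2, an adult beta globin, was the brightest of them and differed by 0.45 ± 0.19 (adjusted p = 0.935). Its other, dimmer probe set was lower in all 3 lines, at a mean of -0.38, and the mean of both was 0.03. The probe sets of Hba-a2, Hba-x and Hbb-bh1 were at 2.43 or less in all 6 arrays. Some globin genes are near-identical copies, and the probe sets of those may not tell them apart.

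Differences in Gata1 and Klf1, which drive this programme, were small. Of 19 erythroid transcription factors, 6 (31.6%) were higher in all 3 lines and 3 (15.8%) lower, against 18.9% and 15.9% of all genes. None passed the test. Gata1 differed by 0.05 ± 0.10 (SE; limma adjusted p = 0.996) and Klf1 by 0.19 ± 0.10 (adjusted p = 0.955). E2f2, described above, is also on this list and was its highest member (0.48 ± 0.12; adjusted p = 0.652). Lyl1 was its lowest, at -0.22 ± 0.13 and lower in 3 of 3 lines (adjusted p = 0.96). Sox6, which helps to silence fetal globin, differed by 0.34 ± 0.11 (adjusted p = 0.891), and Myb, a progenitor factor, by -0.05 ± 0.14 (adjusted p = 0.999).

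Of 16 progenitor and Kit pathway genes, 5 (31.2%) were lower in all 3 lines and 1 (6.2%) was higher, with 0 past the test. Over all genes 15.9% were lower and 18.9% higher in all 3 lines. Ets1, a factor of immature blood cells, was at 4.05 for scr, 4.77 for sh14 and 4.55 for sh133 at 6 h and at 3.23, 4.42 and 4.06 at 12 h (-0.55 ± 0.15 SE; limma adjusted p = 0.705). Its mean over probe sets differed by -0.24, and its times overlapped, through the scr array at 6 h and both hairpin lines at 12 h. Kit, the stem cell factor receptor, differed by -0.20 ± 0.19 (adjusted p = 0.993). Of 12 mast cell markers 4 (33.3%) were lower in all 3 lines and 2 (16.7%) higher. Hdc, which makes histamine, was at 8.69, 7.66 and 7.04 at 6 h and at 7.49, 7.14 and 6.32 at 12 h (-0.81 ± 0.20; adjusted p = 0.652). Cpa3, a mast cell protease, differed by -0.52 ± 0.15 (adjusted p = 0.771), with steps of -0.21 for scr, -0.47 for sh14 and -0.88 for sh133. Cpa3 was dim, at 1.86, 2.64 and 1.66 at 12 h in the same order. Mcpt2, another mast cell protease, was 0.25 ± 0.19 higher in 3 of 3 lines (adjusted p = 0.991). The part of such cells in these differences was not tested. Of the 15 markers measured, Hdc, Kit, Gata2, Mcpt2, Mitf, Cpa3, Fcer1a and Ms4a2 were the 8 above the array median and 7 were below it. Of 30 adhesion and cytoskeleton genes, 7 (23.3%) were lower and 6 (20.0%) higher in all 3 lines, and Vim was the member called.

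Differences in the erythropoietin receptor pathway were small in size over the step. Of its 22 tested genes, 7 (31.8%) were higher and 5 (22.7%) lower in all 3 lines, against 18.9% and 15.9% of all genes. None passed the test, and all 22 had a 95% interval within a 2-fold change, against 99.4% of all genes. Epor, the receptor, differed by 0.05 ± 0.11 (SE; limma adjusted p = 0.996), Jak2, its kinase, by -0.15 ± 0.11 (adjusted p = 0.991), Stat5a, a factor it activates, by 0.11 ± 0.09 (adjusted p = 0.991) and Stat5b by -0.07 ± 0.13 (adjusted p = 0.996). Ptpn6, the phosphatase that turns the receptor off, was 0.23 higher in 3 of 3 lines (adjusted p = 0.935). Of 23 genes of phospholipase C and protein kinase C signalling, 3 were higher and 4 lower in all 3 lines, and Prkci, an atypical protein kinase C, differed by -0.37 (adjusted p = 0.935).

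Immediate early genes, which growth factors switch on within minutes, had 5 of 24 members (20.8%) higher and 5 (20.8%) lower in all 3 lines. The shares over all genes were 18.9% and 15.9%, and 0 members passed the test. Dusp1, a MAP kinase phosphatase that glucocorticoids also induce, was at 4.76 for scr, 4.31 for sh14 and 5.84 for sh133 at 6 h and at 5.52, 5.18 and 6.16 at 12 h (0.65 ± 0.15 SE; limma adjusted p = 0.652). Dusp1 was higher at 12 h within each line, while sh133 was the highest line at both times. Of 18 glucocorticoid target genes 6 (33.3%) were lower in all 3 lines and 1, Dusp1, was higher. Of 14 feedback genes of the ERK pathway 4 (28.6%) were lower and 2 (14.3%) higher.

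Among genes of metabolism no list had a member past the test. Of 33 genes of amino acid supply and the ATF4 response, 10 (30.3%) were lower in all 3 lines and 2 (6.1%) higher. Over all genes 15.9% were lower and 18.9% higher in all 3 lines. Psat1, a serine synthesis enzyme, differed by -0.35 ± 0.13 (SE, limma adjusted p = 0.935). The list medians were -0.03 for scr, -0.29 for sh14 and 0.0047 for sh133, so the largest shift was in sh14. Of 44 ribosome biogenesis genes, 15 (34.1%) were higher and 3 (6.8%) lower, at a median of 0.05. Cholesterol synthesis genes had 0 of 20 members with 1 sign in all 3 lines, with medians of -0.23 for scr, -0.07 for sh14 and 0.13 for sh133. Chosen after their values were seen, the cholesterol export gene Abca1 was higher by 1.77 for scr, 0.54 for sh14 and 0.97 for sh133 (1.09 ± 0.26; adjusted p = 0.652), its relative Abcg1 by a mean of 0.66 (adjusted p = 0.892), and Srebf1, a master regulator of lipid synthesis, by 0.45 (adjusted p = 0.698). The brightest probe set of each was higher in 3 of 3 lines, but the other 2 of Abca1, both dim, differed by -0.10 and -0.04, and its mean over probe sets was 0.32 (adjusted p = 0.934). Acsl6, a fatty acid activating enzyme also chosen after its values were seen, was 0.86 ± 0.20 higher in 3 of 3 lines (adjusted p = 0.652), or 0.41 as a mean over its probe sets.

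Whether the step was common to the 3 lines was tested by letting the hairpin lines' step differ from that of scr. limma called 0 of 12673 genes (0%), and 192 (1.52%) were at an unadjusted p under 0.05. The median SE of this difference was 0.249, so moderate differences between lines were not detectable, and each line's own step has no replicate. Of the genes of smallest p, Tnfrsf14, a receptor of the tumour necrosis factor family, was 1.52 higher at 12 h in scr, against 0.10 in sh14 and 0.17 in sh133. The kinetochore gene Ndc80 had steps of 0.50, -0.37 and -0.22, and Nsl1, also of the kinetochore, 0.73, -0.07 and -0.02 in the same order. Arrdc3, an arrestin-like adaptor, had -1.18, -0.17 and -0.07. All of these had an adjusted p of 1.

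Set beside its neighbours, the middle step had the fewest calls: 1 gene (0.00789%) against 616 (4.86%) from 1 h to 6 h and 158 (1.25%) from 12 h to 22 h in the same fit. The early calls were 371 higher (2.93%) and 245 lower (1.93%), and the late calls 54 higher (0.426%) and 104 lower (0.821%). The steps last 5, 6 and 10 h and share arrays. The sh133 arrays of 1 h and 22 h carry the other title date than those of 6 h and 12 h, while scr and sh14 each keep 1 date. The early and late steps of sh133 thus cross dates and the middle step does not. The date term rests on sh133 alone, so the counts of the steps are not fully alike in design. The median absolute difference was 0.133, 0.0819 and 0.138, and 123, 4 and 43 genes differed by over 1. The middle step differed from the early step in 8 genes (0.0631%), 7 of which (0.0552%) had a middle step above the early step. Egr1, an immediate early transcription factor, was at 9.49 for scr, 8.11 for sh14 and 8.79 for sh133 at 1 h, at 3.12, 3.12 and 3.85 at 6 h, and at 2.63, 3.40 and 3.56 at 12 h. Its early step was -5.53 and its middle step -0.17 (difference 5.36 ± 0.57 SE; limma adjusted p = 0.0292). The arrays of 6 h and 12 h overlapped, and sh14 was higher at 12 h while scr and sh133 were lower.

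In the others an early difference was followed by a smaller middle one of the opposite sign. The genes were chosen by the difference of 2 steps that share the 6 h arrays. That choice favours steps of opposite sign, and none of the middle steps passed the test. Dusp16, a phosphatase of JNK and p38, had an early step of -1.78 and a middle step of 0.17 ± 0.15 (SE). Egln3, a prolyl hydroxylase of the hypoxia response, had -1.64 and 0.16 ± 0.12. Cdkn1a, the CDK inhibitor p21, had -1.52 and 0.19 ± 0.12, and Klf9, a glucocorticoid-responsive factor, -1.54 and 0.07 ± 0.12. The lines did not share the sign of the middle step in Dusp16 (-0.06 in sh14) or in Klf9 (-0.06 in scr). Zfp472, a zinc finger protein, had -0.93 and 0.25. Dipk2a, named because the count is small and chosen after its values were seen, had -0.86 and 0.29. Thap2, a zinc finger protein that was higher at 6 h than at 1 h, had 1.20 and -0.36. The 95% intervals of the middle steps of Thap2 (-0.62 to -0.11) and Zfp472 (0.05 to 0.46) did not include 0, and neither middle step passed the test (adjusted p of 0.857 and 0.935). The limma adjusted p of these 7 differences lay between 0.041 and 0.0498, close to the threshold. The count was 14 without the date term and 5 with the mean over probe sets.

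**Figure D4:**
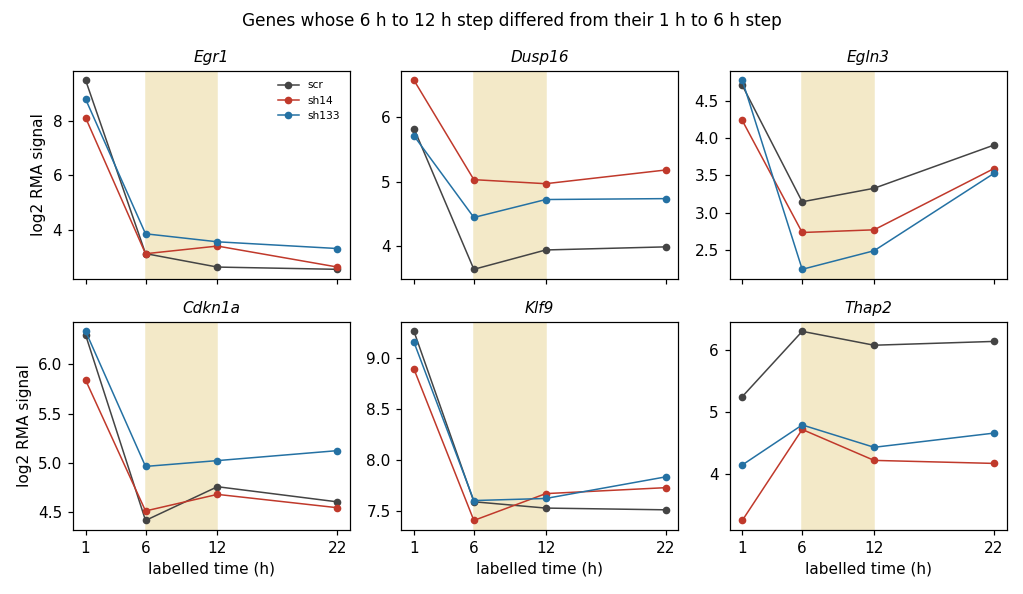
Log2 RMA signal (y axis) at the labelled times of 1, 6, 12 and 22 h (x axis) of 6 of the 8 genes whose middle step differed from their early step, 1 point per array and 1 line per shRNA line, with the 6 h to 12 h step shaded. Egr1 dropped from 8.11 to 9.49 at 1 h to 3.12 to 3.85 at 6 h and lay at 2.63 to 3.56 at 12 h.

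No gene differed between the late and the middle step by limma (0 of 12673, smallest adjusted p 0.325), with 869 at an unadjusted p under 0.05. The smallest p belonged to Vim, whose late step was -3.45 (adjusted p = 1.4e-05), its middle step -1.52 and its early step -0.69 (adjusted p = 0.043). Vim was at 7.58 for scr, 8.15 for sh14 and 7.24 for sh133 at 1 h and at 2.07, 2.54 and 1.39 at 22 h, so it was lower at each time than at the time before in every line. The late step lasts longer, and the 22 h values lie near the array medians, where sizes are uncertain. Esrp2, a splicing regulator, had a middle step of 0.32 and a late step of -1.02 (adjusted p of the difference 0.382), and H3f3b had 0.74 and -0.61 (adjusted p of the difference 0.382).

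The 1 h and 22 h arrays share no array with the step, and their difference was used to split the genes. The calls behind the split come from the 12-array fit, whose residual spread includes the 6 h and 12 h arrays, so the split is not independent of how alike the lines were over the step. It was chosen after the values were seen. Of 1107 genes called higher at 22 h than at 1 h (8.74% of those tested), 503 (45.4%) were higher at 12 h than at 6 h in all 3 lines and 81 (7.32%) lower. Of 1184 called lower at 22 h (9.34%), 414 (35%) were lower in all 3 lines and 107 (9.04%) higher. Over all genes these shares were 18.9% and 15.9%. The median middle step was 0.11 in the genes higher at 22 h and -0.06 in those lower, against a median difference between 22 h and 1 h of 0.55 and -0.56.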

How the data were processed

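The 12 arrays hold amplified, biotin-labelled total RNA of 3 shRNA lines at 4 times, 1 array each. The authors deposited log2 probe set signals from RMA (named in the submitters' processing notes), whose version is not given in the sources used here. The method equalises the distributions of the arrays, so a change in total RNA cannot be read from them, and the number of arrays limits the precision. Array medians ran from 1.84 to 1.92. No 2 arrays were identical. Of 45101 probe sets the platform annotation gave 34958 a single gene, 932 more than 1 and 9211 none, and 34754 matched RefSeq by identifier. The probe set of highest mean over 12 arrays stood for each of 18194 genes. A filter at the 40th percentile of mean signal (1.45) kept 12673.

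The test was limma 3.58.1 (R 4.3.3) on all 12 arrays with time, shRNA and title date as terms (5 residual degrees of freedom), moderated variances, and Benjamini-Hochberg adjustment over 12673 genes at 0.05. The shRNA term is the block that pairs arrays of a line. Deviations from the time mean correlated at 0.74, 0.77 and 0.78 between the 6 h and 12 h arrays of scr, sh14 and sh133. Between different lines they correlated below 0, which deviations from a mean of 3 lines bring about, as they sum to 0. The step is the mean of the 3 paired differences, which the date term does not alter. SEs and intervals use the spread of the 12-array fit, not that of the 3 pairs alone. The script was tested on simulated data. Figures were drawn with Python 3.11.15.

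The genes named are Gata1, Klf1, Kit, Myb, Plcg1, Plcg2, Epor, Jak2 and both Stat5 genes, called genes, up to 4 members of largest difference per list described, and the 5 of smallest p in each direction where fewer than 5 were called. Predicted genes were counted, not named, and genes outside the rule are marked in the text. The comparison, the gene lists and the rule were chosen with earlier results of these data known. Lists were counted, not tested. Alternatives changed the date term, the block, the filter, the probe set rule, the moderation, the array centring and the arrays in the fit.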

Additional observations from a re-analysis of the deposited data

How the results depend on the processing

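The count of 1 gene called between 12 h and 6 h, and of 1 called lower, became 0 with the mean over probe sets, with only the 6 arrays, and with no replicate block. Leaving out a line or an array gave 0 to 1. The count called higher was 0 under each alternative run. The 8 genes whose middle and early steps differed became 14 with no date term and 5 with the mean over probe sets. The heme and iron median of 0.11 was 0.15 with the mean over probe sets, 0.12 with the filter at the 60th percentile, and 0.12 to 0.16 with a line left out. Of the 67 genes followed, 10 changed sign under some alternative. When probe sets were averaged, the difference was over 1.5 times smaller in size for 22 of the 67, among them Kif2c (-0.14), Ppox (0.15) and Prkci (-0.19). Plcg1 was at -0.0275 with the mean over probe sets. When a line or array was left out, the 12 h minus 6 h difference ran from -0.52 to 0.14 for Egr1, -0.0416 to 0.158 for Epor, -0.0258 to 0.148 for Gata1, -0.0671 to 0.126 for Hba-x, -0.0208 to 0.142 for Klf9, -0.147 to 0.0564 for Myb, -0.298 to 0.140 for Ndc80, -0.046 to 0.351 for Nsl1, and -0.176 to 0.0051 for Stat5b. All 10 had differences of 0.21 or less in size with all arrays, and the cause was not tested. Variance was estimated from 12 arrays with no repeat of a line and time, so the size of spread between cultures is not measured here.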
